A study of Rattus norvegicus with 8 samples.

Results

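Transcripts of albumin and of the acute phase proteins made by hepatocytes were examined in livers of rats with cirrhosis, with and without antiangiogenic treatment. The members were 10 genes taken by symbol: Alb, Ttr, Hpx, Hp, Orm1, A2m, Crp, Apcs, Cp and Saa4. A member probe set was one to which the platform annotation gives 1 gene symbol that is on this list, which left 12 probe sets of 9 genes, out of 31042 probe sets and 14217 genes with such a symbol. Saa4, a serum amyloid A of high density lipoprotein, had only a probe set shared with another symbol and is not described. A further probe set shared by Ttr and other genes was left out for the same reason.

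The antiangiogenic group held 4 male Wistar rats whose labels name an antiangiogenic treatment but neither the compound, the dose nor the duration. The vehicle group held 4 male Wistar rats, labelled as given vehicle and called non-treated in the series design. Rats of both groups had cirrhosis induced by inhaled CCl4, a hepatotoxin, and drank water with 0.3 g/L phenobarbital, which itself induces hepatic drug metabolism, so that every difference below is between livers that share both exposures. Age is not given in the sources used here, and livers without cirrhosis were not analysed here. By the labels, RNA of each liver was run on its own Rat2302 array of Affymetrix, and all levels are log2 values after robust multi-array average (RMA) processing.

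The acute phase response is the change in plasma protein production by the liver that follows injury or infection. Interleukin 6 and related cytokines act through the receptor chain gp130 and the transcription factor STAT3, and interleukin 1 acts through NF-kappaB and C/EBP factors, to raise the transcription of positive reactants, while negative reactants such as albumin and transthyretin decline. Species differ in their main reactants. In the rat, alpha-2-macroglobulin and alpha-1-acid glycoprotein respond strongly, whereas C-reactive protein is already abundant in the plasma of healthy animals.

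The livers were bright for hepatocyte genes. All 9 measured hepatocyte markers of 10 listed had mean levels at or above percentile 97.85 of the probe sets, and the mean of the list lay between 13.04 and 13.35 on the antiangiogenic arrays and between 13.06 and 13.30 on the vehicle arrays. Markers of other cells had lower means in antiangiogenic livers at 8 of 8 leukocyte genes, 8 of 8 stellate cell and matrix genes, 7 of 7 endothelial genes, 4 of 5 bile duct genes and 3 of 4 erythroid genes, and 0 of these passed the adjusted threshold. Without antiangiogenic 3 and vehicle 4, described next, 1 of them did, the endothelial tight junction gene Cldn5 (1374104_at), with a difference of −2.26 (limma adjusted p = 0.0388). The leukocyte list means were 7.52 to 8.86 on antiangiogenic and 7.88 to 9.19 on vehicle arrays. Those of stellate cells and matrix were 7.65 to 9.18 on antiangiogenic and 8.51 to 9.72 on vehicle arrays. Those of endothelium were 6.54 to 6.80 on antiangiogenic and 6.61 to 7.77 on vehicle arrays. For endothelium, vehicle 1 to 3 lay between 7.64 and 7.77, above every antiangiogenic array, and vehicle 4 lay at 6.61. The part of these other cells in the member values was not tested, and fewer cells of a type cannot be told apart from less RNA per cell in whole liver. Antiangiogenic 3 and vehicle 4 were nearly identical, with a median absolute gap of 0.112 per probe set against 0.169 to 0.289 in the 27 other pairs, and at the members the gap between them was at most 0.098. Whether they hold RNA of separate livers under the right labels cannot be read from the labels themselves, so n = 4 per group counts arrays and not necessarily livers. The differences of the members without both arrays are plotted beside those with them.

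None of the members was called different between the groups. Of the 12 member probe sets, 0 passed an adjusted p of 0.05 in limma with Benjamini-Hochberg adjustment, as did 0 of all 31042 (0%). At an unadjusted p of 0.05 the count was 0 of 12 members, against 3.93% of all probe sets, and eBayes with trend and robust settings also gave 0 of 12. The groups overlapped at every member probe set (0 of 12 without overlap, against 1.67% of all). The mean was higher in antiangiogenic livers at 5 member probe sets and lower at 7, and 54.7% of all probe sets had a higher mean. The median difference, antiangiogenic minus vehicle, was −0.013 over the members and 0.018 over all probe sets, and the median size of a difference regardless of sign was 0.058 over the members and 0.111 over all. Without the near-identical arrays 0 of 12 members had an unadjusted p under 0.05, against 6.52% of all probe sets, and 0 of 12 passed the adjusted threshold, against 0.00966%. In the plot of differences, the 95% intervals range from narrow at albumin to wide at A2m.

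**Figure D1:**
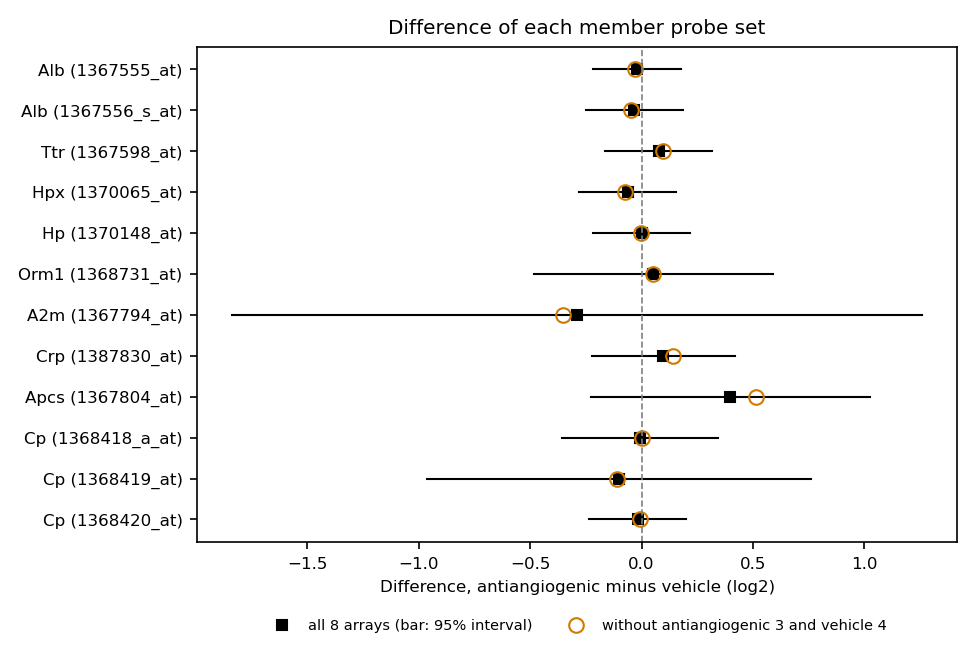
Difference of each member probe set, antiangiogenic minus vehicle, on the log2 scale (x axis). Squares are limma estimates from all 8 arrays with 95% intervals, and open circles are estimates without antiangiogenic 3 and vehicle 4. All 12 intervals include 0, and the interval of A2m is the widest, from −1.84 to 1.26.

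Albumin, the main protein of plasma and a carrier of fatty acids and drugs, is a negative reactant. Its probe set 1367555_at stood at 14.79, 14.82, 14.85 and 14.81 on antiangiogenic 1 to 4, against 14.81, 14.85, 14.85 and 14.84 on vehicle 1 to 4. It averaged 14.82 ± 0.026 in antiangiogenic and 14.84 ± 0.018 in vehicle livers (SD, n = 4 each), a difference of −0.021 (95% interval −0.22 to 0.18, limma adjusted p = 0.996). This probe set was the brightest of all on 8 of 8 arrays, so the top of the RMA scale bounds it, and quantile normalization of the deposited values sets its difference to exactly 0. The second probe set, 1367556_s_at, averaged 14.56 ± 0.097 in antiangiogenic and 14.59 ± 0.036 in vehicle livers (difference −0.032, 95% interval −0.25 to 0.18). Its lowest array was antiangiogenic 1 at 14.43, and the other 7 lay between 14.56 and 14.66. Both intervals are set by variances that limma draws towards those of other probe sets, so they are wider than the SDs over arrays alone would give.

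The promoter of the albumin gene is shown as that of the main plasma protein of the liver, beside those of the acute phase genes further on. The 250 bases before the transcription start lie at chr14:17906980-17907229 on the minus strand of GRCr8 (RefSeq), written 5′ to 3′ on the strand of the gene, with capitals for the motif matches.
Alb: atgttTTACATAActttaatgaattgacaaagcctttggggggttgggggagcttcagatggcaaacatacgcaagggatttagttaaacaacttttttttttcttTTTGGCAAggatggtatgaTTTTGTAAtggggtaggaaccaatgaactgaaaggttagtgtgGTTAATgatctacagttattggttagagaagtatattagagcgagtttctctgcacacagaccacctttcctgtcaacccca
Motifs were searched on both strands as TTCNNNGAA (STAT), CTGGGA (core of the type 2 interleukin 6 response element), TTNNGNAA (C/EBP) and GTTAAT (part of the HNF1 motif). In this window Alb held 3 matches to TTNNGNAA and 1 to GTTAAT. At least 1 match to TTNNGNAA stands in 37.2%, and to GTTAAT in 6.45%, of 33469 rat promoters of the same length. The share of promoters with several matches was not counted. The capitals of the sequences shown do not come from overlapping matches, and a match is a string of letters, not a shown binding site.

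Transthyretin, encoded by Ttr, carries thyroid hormone and, through retinol-binding protein, vitamin A, and is also a negative reactant. Its probe set 1367598_at stood at 13.92, 14.12, 14.00 and 13.93 on antiangiogenic 1 to 4, against 13.94, 13.99, 13.74 and 13.99 on vehicle 1 to 4. Vehicle 3 was the lowest and antiangiogenic 2 the highest, and the others lay close together. The difference was 0.076 (SE 0.105, 95% interval −0.16 to 0.31, limma adjusted p = 0.979), and 0.019 without vehicle 3 and 0.095 without both near-identical arrays.

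Hpx and Hp encode hemopexin and haptoglobin, which bind free haem and free haemoglobin in plasma and are positive reactants. Hpx (1370065_at) stood at 13.77, 13.89, 13.80 and 13.91 on antiangiogenic 1 to 4, against 13.87, 14.01, 13.91 and 13.83 on vehicle 1 to 4. The difference was −0.063 (SE 0.096, 95% interval −0.28 to 0.15), and −0.075 without both near-identical arrays. Hp (1370148_at) stood at 14.31, 14.29, 14.17 and 14.29 on antiangiogenic 1 to 4, against 14.30, 14.35, 14.26 and 14.16 on vehicle 1 to 4. Its group means were equal to 3 digits, 14.27 in both, and the difference was 0.00041 (95% interval −0.22 to 0.22). The lowest Hp values were those of the near-identical antiangiogenic 3 and vehicle 4, below all other 6 arrays.

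Orm1 encodes alpha-1-acid glycoprotein, a plasma protein that binds basic drugs and is a strong reactant of the rat. Its probe set 1368731_at stood at 13.81, 13.76, 12.97 and 13.46 on antiangiogenic 1 to 4, against 13.83, 13.54, 13.49 and 12.92 on vehicle 1 to 4. Antiangiogenic 3 and vehicle 4 were again the lowest, and the other 6 arrays lay between 13.46 and 13.83. The difference was 0.053 (SE 0.238, 95% interval −0.48 to 0.59, limma adjusted p = 0.996) and 0.051 without both near-identical arrays. Because the low pair holds 1 array of each group, leaving out antiangiogenic 3 alone gave 0.23 and leaving out vehicle 4 alone gave −0.12. The near-identical pair lay below the other 6 arrays at 4 of the 12 member probe sets, namely Hp, Orm1 and Cp 1368418_a_at and 1368419_at, against 6.8% of all probe sets, a count made after their values were seen.

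The promoters of Orm1, Crp, Apcs and Cp are shown as those of the positive reactants and pentraxins, other than Hpx, for which the RefSeq table held an entry. That table held 7 of the 10 listed genes. The windows are the 250 bases before the start, at chr5:81788259-81788508 (plus strand), chr13:87693812-87694061 (plus strand), chr13:87906509-87906758 (minus strand) and chr2:104368420-104368669 (plus strand) of GRCr8.
Orm1: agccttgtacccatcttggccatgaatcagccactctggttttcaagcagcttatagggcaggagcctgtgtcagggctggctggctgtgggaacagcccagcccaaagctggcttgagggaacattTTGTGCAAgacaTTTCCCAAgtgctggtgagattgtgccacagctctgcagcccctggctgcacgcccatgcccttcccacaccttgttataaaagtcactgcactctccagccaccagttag
Crp: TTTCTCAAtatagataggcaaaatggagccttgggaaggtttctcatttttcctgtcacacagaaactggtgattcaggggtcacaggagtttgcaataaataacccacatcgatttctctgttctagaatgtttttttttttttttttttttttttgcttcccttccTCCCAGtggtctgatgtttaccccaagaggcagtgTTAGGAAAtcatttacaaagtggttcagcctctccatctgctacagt
Apcs: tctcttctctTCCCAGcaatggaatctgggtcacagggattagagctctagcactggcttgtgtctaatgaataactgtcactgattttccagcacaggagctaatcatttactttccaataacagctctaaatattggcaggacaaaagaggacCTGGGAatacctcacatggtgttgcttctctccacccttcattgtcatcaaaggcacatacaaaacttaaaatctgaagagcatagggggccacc
Cp: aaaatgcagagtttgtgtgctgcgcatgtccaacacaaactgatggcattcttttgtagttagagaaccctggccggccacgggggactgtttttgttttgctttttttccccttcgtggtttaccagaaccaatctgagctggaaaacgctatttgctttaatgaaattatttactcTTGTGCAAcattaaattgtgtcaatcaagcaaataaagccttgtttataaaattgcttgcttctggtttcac
Orm1 held 2 matches to TTNNGNAA, at 123 to 116 and 111 to 104 bases before the start. Crp held 2 matches to TTNNGNAA and 1 to CTGGGA, Apcs held 2 to CTGGGA and 0 to TTNNGNAA, and Cp held 1 to TTNNGNAA. None of the 7 windows (0) held TTCNNNGAA, which stands in 7.67% of all rat promoters of this length, and CTGGGA stands in 25.7%. The windows not shown were those of Ttr with 1 match to CTGGGA and Hpx with 2 to TTNNGNAA.

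A2m encodes alpha-2-macroglobulin, a broad protease inhibitor that is among the strongest reactants of the rat, and it varied most of all members. Its probe set 1367794_at stood at 10.03, 9.61, 8.99 and 9.06 on antiangiogenic 1 to 4, against 12.08, 8.65, 9.03 and 9.09 on vehicle 1 to 4. Vehicle 1 stood far above every other array, and the highest array was 10.8-fold above the lowest, vehicle 2. Vehicle 1 was 2.05 above the next array. A lead of at least 1 for vehicle 1 occurred at 1 of the 12 member probe sets, against 0.151% of all. This array and step were chosen after the values were seen. It averaged 9.42 ± 0.49 in antiangiogenic and 9.71 ± 1.59 in vehicle livers (SD, n = 4 each), a difference of −0.29 (SE 0.68, 95% interval −1.84 to 1.26, limma adjusted p = 0.992). Without vehicle 1 the sign turned and the difference was 0.500 (unadjusted p = 0.0957, limma adjusted p = 1). Leaving out antiangiogenic 3 and vehicle 4 gave −0.353. Vehicle 1 also had the highest mean of the leukocyte list (9.19) and of the stellate and matrix list (9.72), but vehicle 3, with A2m at 9.03, was close to it in both (9.16 and 9.59), and the part of those cells in its A2m value was not tested.

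**Figure D2:**
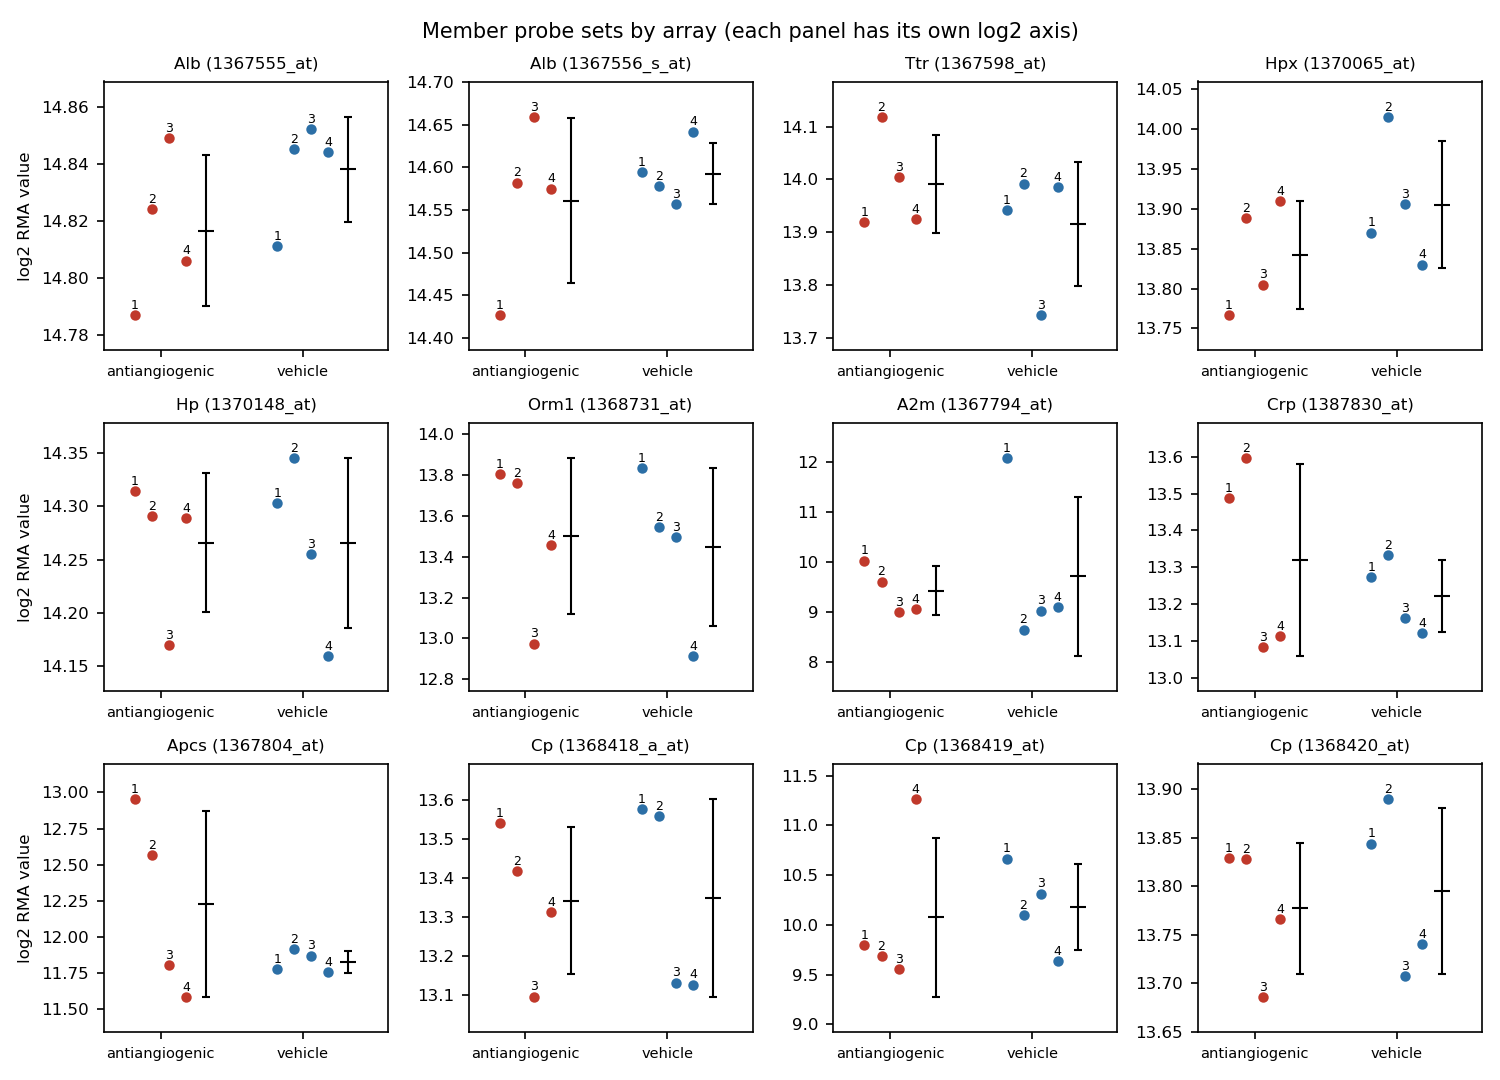
Log2 RMA values (y axis, a separate scale in each panel) of the 12 member probe sets on the antiangiogenic arrays (red) and the vehicle arrays (blue). Points are single arrays with their replicate number, and bars are the group mean with 1 SD. The groups overlap in every panel, and A2m of vehicle 1 at 12.08 is the farthest from its own group.

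Crp and Apcs encode the pentraxins C-reactive protein and serum amyloid P component, ring-shaped plasma proteins that bind microbial and damaged cell surfaces. Crp (1387830_at) stood at 13.49, 13.60, 13.08 and 13.11 on antiangiogenic 1 to 4, against 13.27, 13.33, 13.16 and 13.12 on vehicle 1 to 4. Apcs (1367804_at) stood at 12.95, 12.56, 11.81 and 11.59 on antiangiogenic 1 to 4, against 11.78, 11.92, 11.87 and 11.76 on vehicle 1 to 4. At both genes antiangiogenic 1 and 2 were above all other 6 arrays, while antiangiogenic 3 and 4 lay within or below the vehicle range. Of all probe sets 7.6% had antiangiogenic 1 and 2 above the other 6 arrays, a pattern looked for after the values were seen.

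The Apcs difference was the largest in size of the members at 0.40, 1.32-fold higher in antiangiogenic livers (SE 0.28, 95% interval −0.23 to 1.02, limma adjusted p = 0.979). The antiangiogenic SD was 0.64 and the vehicle SD 0.077. The difference was 0.156 without antiangiogenic 1, 0.513 without the near-identical arrays and 0.612 without antiangiogenic 4 (unadjusted p = 0.0369, limma adjusted p = 0.521). The Crp difference was 0.098 (SE 0.142, 95% interval −0.22 to 0.42), 0.0058 without antiangiogenic 2 and 0.143 without both near-identical arrays.

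Cp encodes ceruloplasmin, a copper-carrying ferroxidase and a moderate positive reactant, and had 3 probe sets. The bright 1368420_at ranged from 13.69 to 13.83 on antiangiogenic and from 13.71 to 13.89 on vehicle arrays, a difference of −0.018 (95% interval −0.24 to 0.20). The bright 1368418_a_at ranged from 13.10 to 13.54 on antiangiogenic and from 13.13 to 13.58 on vehicle arrays, a difference of −0.0070 (95% interval −0.36 to 0.34). The dimmer 1368419_at went its own way, at 9.80, 9.68, 9.56 and 11.27 on antiangiogenic 1 to 4, against 10.67, 10.10, 10.32 and 9.63 on vehicle 1 to 4. Antiangiogenic 4 was the highest there, whereas at the other probe sets of the gene it lay inside the range of the rest. The difference of 1368419_at was −0.10 (95% interval −0.96 to 0.76), and −0.498 without antiangiogenic 4 (unadjusted p = 0.0605). Antiangiogenic 4 also had the highest bile duct marker mean of all arrays, 7.70 against 5.87 to 6.99 on the others. Antiangiogenic 4 led at Epcam, Spp1 and Cldn7 of that list. Vehicle 1 led at the keratin genes Krt19 (7.08 against 6.66 on antiangiogenic 4) and Krt7 (4.73 against 4.07). The part of bile duct cells in the 1368419_at values was not tested.

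**Figure D3:**
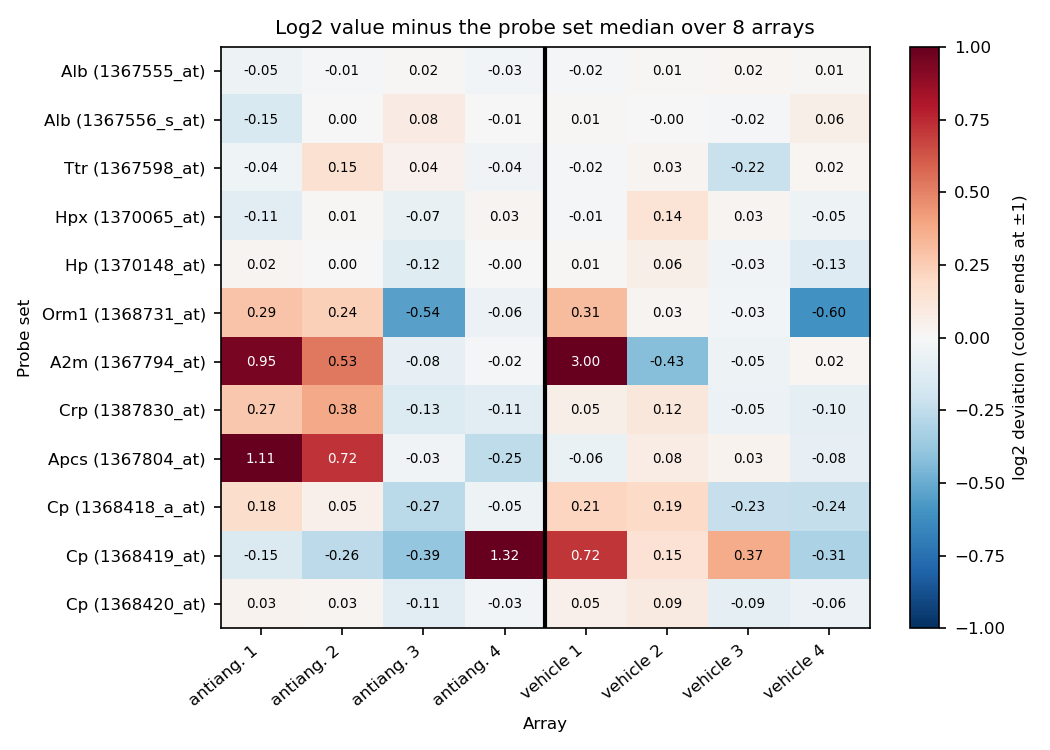
Each cell gives the log2 value of a member probe set (rows) on an array (columns) minus the median of that probe set over the 8 arrays, with the antiangiogenic arrays left of the line and colours ending at ±1. Albumin and hemopexin rows are nearly flat, antiangiogenic 3 and vehicle 4 share low Orm1 values of 12.97 and 12.92, and A2m stands out on vehicle 1 at 12.08.

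The members fell into steady and variable ones by their spread over all 8 arrays. The SD was 0.024 and 0.070 for the albumin probe sets, 0.067 for Hp, 0.072 for Cp 1368420_at, 0.076 for Hpx and 0.106 for Ttr, all below the median SD of 0.222 over all probe sets. Crp and Cp 1368418_a_at, with 0.189 and 0.207, were just under that median. Orm1 with 0.356, Apcs with 0.472, Cp 1368419_at with 0.597 and A2m with 1.10 were above it. The mean level of 9 of the 12 member probe sets was in the top 1% of the array, and the steady ones were all among these 9. Over all 311 probe sets in that top 1% the median SD was 0.227. The member probe sets with an SD of at most 0.106 had means at or above percentile 99.92. Genes of the other lists described here with means that high had SDs from 0.044 to 0.165, so a low spread was not particular to the members.

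None of the other positive reactants was called either. Of 30 listed genes 25 were measured, 10 with a higher and 15 with a lower mean in antiangiogenic livers, a median difference of −0.029, and 0 passed the adjusted threshold. The smallest unadjusted p-values were those of Lrg1 (1374626_at), a leucine-rich glycoprotein of the acute phase, and Mbl2 (1379240_at), the mannose-binding lectin that starts the lectin pathway of complement. Lrg1 stood at 5.61, 7.01, 6.19 and 6.39 on antiangiogenic 1 to 4, against 7.92, 7.86, 7.69 and 6.20 on vehicle 1 to 4, so that only the near-identical vehicle 4 lay inside the antiangiogenic range. Its difference was −1.12 (95% interval −2.06 to −0.18, limma adjusted p = 0.979), and −1.49 without both near-identical arrays. Mbl2 differed by 0.40 (95% interval 0.0035 to 0.80, limma adjusted p = 0.979).

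Other negative reactants had higher means in antiangiogenic livers at 12 of 17 measured genes of 20 listed, with a median difference of 0.126, and 0 passed the adjusted threshold. Fetub (1387082_at), the protease inhibitor fetuin B, differed by 0.43 (95% interval −0.040 to 0.90), and Apom (1386980_at), the lipoprotein component that carries sphingosine 1-phosphate, by 0.52 (95% interval −0.056 to 1.09), both with a limma adjusted p of 0.979. Apom stood at 11.39, 11.38, 10.79 and 10.61 on antiangiogenic 1 to 4, against 10.57, 10.86, 9.93 and 10.75 on vehicle 1 to 4, again with antiangiogenic 1 and 2 the highest.

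Several genes of the signalling that drives the response were highest on antiangiogenic 2. Of 28 measured genes of 29 listed, 16 had a higher mean in antiangiogenic livers, with a median difference of 0.014, and 0 passed the adjusted threshold. Antiangiogenic 2 was at least 1 above every other array at 7 of the 28 (25%), against 0.345% of all probe sets, a count made after the values were seen, and it was the highest array at 15 of the 28 (53.6%), against 14% of all. These 7 were Il6, Il1a, Il1b, Stat3, Socs3, Junb and Nfkbia. Stat3 (1370224_at), the transcription factor of interleukin 6 signalling, stood at 9.04, 11.25, 9.30 and 9.99 on antiangiogenic 1 to 4, against 9.36, 9.25, 10.04 and 9.37 on vehicle 1 to 4. Socs3 (1369584_at), its induced inhibitor, stood at 4.91, 7.06, 4.81 and 5.15 on antiangiogenic 1 to 4, against 5.19, 5.43, 4.80 and 5.01 on vehicle 1 to 4. The array that led both genes, antiangiogenic 2, was also the highest for Crp at 13.60 and for the negative reactant Ttr at 14.12. It was not the highest at the other 10 member probe sets. Its mean over the 25 positive reactants listed beside the members was the highest of all arrays, 11.47 against at most 11.34, a comparison made after the values were seen.

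The factors Cebpb (1387087_at) and Cebpd (1387343_at) bind C/EBP elements of acute phase promoters. Their levels on antiangiogenic 2 were 11.45 and 8.50, against at most 10.65 and 7.77 on the others. Their differences were 0.021 (95% interval −0.63 to 0.68) and 0.075 (95% interval −1.12 to 1.28). Il6r (1386987_at), the receptor chain that binds interleukin 6, differed by 0.0069 (95% interval −0.50 to 0.51), with its highest value, 9.76, on vehicle 1. Il6st (1370957_at), which encodes gp130, differed by 0.23 (95% interval −0.13 to 0.58), and Il1rap (1393563_at), the accessory chain of the interleukin 1 receptor, by 0.65 (95% interval −0.19 to 1.50), both with a limma adjusted p of 0.979.

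**Figure D4:**
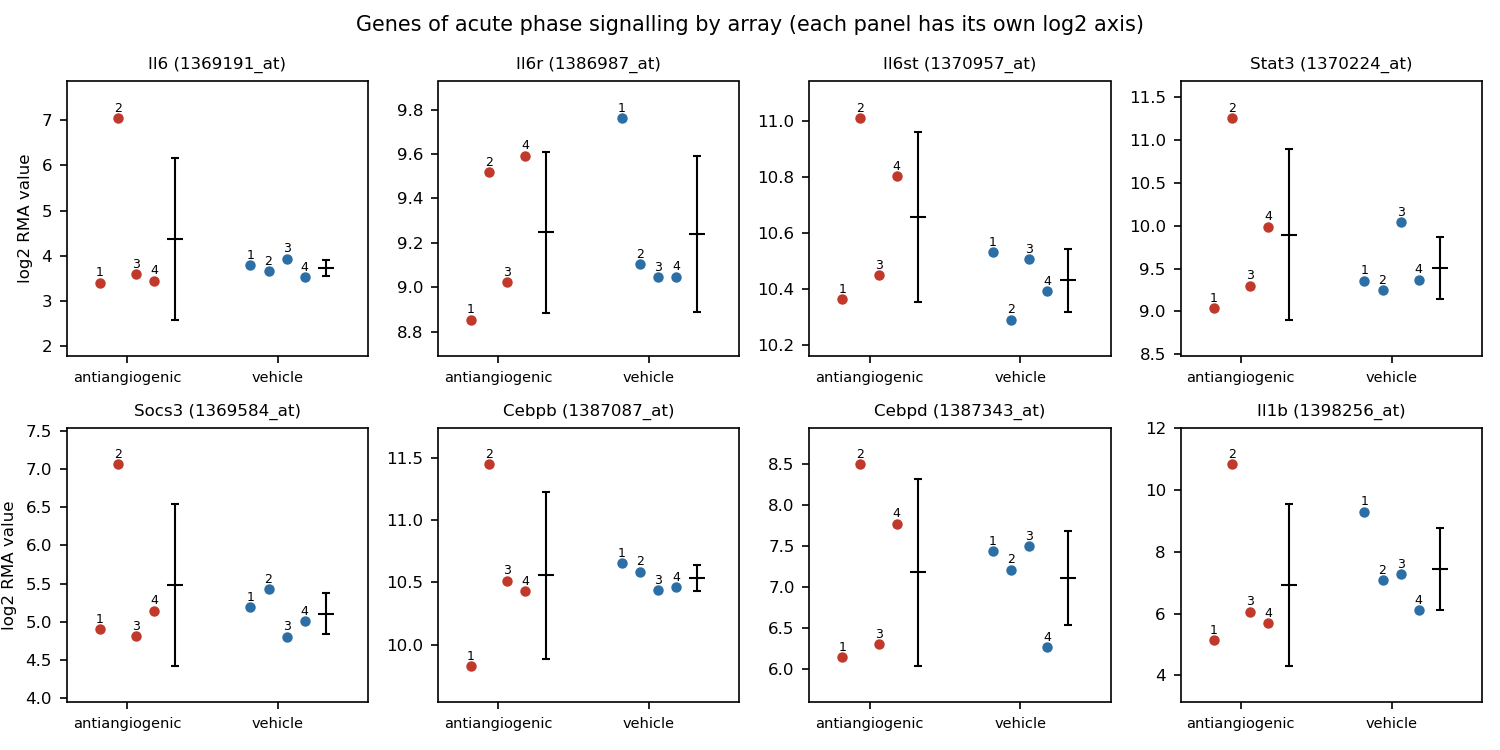
Log2 RMA values (y axis, a separate scale in each panel) of 8 signalling genes on the antiangiogenic arrays (red) and the vehicle arrays (blue), with single arrays numbered by replicate and bars for the group mean with 1 SD. Antiangiogenic 2 is the highest array in every panel but that of Il6r, where vehicle 1 leads at 9.76. Il6 and Il1b were chosen after their values were seen. Over all 28 measured signalling genes antiangiogenic 2 was the highest at 15.

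Factors that bind the albumin promoter and hepatocyte genes alike had higher means in antiangiogenic livers at 10 of 12 measured genes of 14 listed, with a median difference of 0.38, and 0 passed the adjusted threshold. Cebpa (1384127_at), the C/EBP factor of resting hepatocytes, stood at 10.59, 10.08, 10.08 and 9.38 on antiangiogenic 1 to 4, against 8.64, 9.90, 8.59 and 10.09 on vehicle 1 to 4. The groups overlapped, and the difference was 0.72 (95% interval −0.17 to 1.62, limma adjusted p = 0.979). Foxa3 (1387506_at) and Foxa1 (1369834_at), forkhead factors of the liver, differed by 0.47 (95% interval 0.057 to 0.88) and 0.52 (95% interval −0.069 to 1.11).

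Receptors and partners of the members had higher means in antiangiogenic livers at 11 of 15 genes, with a median difference of 0.155, and 0 passed the adjusted threshold. Lrp1 (1388416_at), the receptor that clears haem bound to hemopexin and proteases bound to alpha-2-macroglobulin, differed by 0.34 (95% interval −0.039 to 0.72). Hmox2 (1367903_at), a constitutive haem oxygenase, differed by 0.44 (95% interval −0.0020 to 0.89). Both had a limma adjusted p of 0.979. The genes Hmox1 and Rbp4 of this list stand in another of the lists as well.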

How the data were processed

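The 8 Rat2302 arrays were used, 4 per group, grouped and numbered by title. The labels' protocols describe frozen liver RNA labelled from an oligo(dT) primer, so signal depends on RNA integrity and on distance from the 3′ end. Per the submitters' processing notes, the authors used affy and RMA, with no version or setting named. They deposited log2 values between 2.41 and 14.85, which were used unchanged. Of 31099 probe sets, 57 controls were left out.

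Names came from the platform annotation, which gives 1 symbol to 20826 of the 31042 tested probe sets, several to 436 and none listed to 9780. The test was limma (version 3.58.1, R 4.3.3) without covariates, with Benjamini-Hochberg adjustment over 31042 probe sets and a threshold of 0.05. Context genes were represented by their brightest probe set with 1 symbol. In values simulated for this comparison over 31042 probe sets, limma called 61 of 100 probe sets changed by 1 on the log2 scale. It called 94 of 100 changed by 2, and made 5 false calls. The share of such changes that would be called on the 8 arrays themselves was not tested. On these arrays 345 probe sets differed at least 2-fold between group means, and 0 of 31042 were called.

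The text names all members, 7 regulators by name (Il6r, Il6st, Stat3, Socs3, Cebpb, Cebpd and Cebpa) and, per context list, up to 3 genes past the threshold or else the 2 with the smallest p. Members, lists, alternatives and this rule were chosen with earlier results of these data known. Il6, Il1b, Il1a, Junb, Nfkbia, Apoa1, Cd14, Cldn5 and the genes of the tally beside Apoa1 were named after their values were seen. So were the bile duct genes named beside Cp. Arrays were clustered by the spike-in controls BioB and BioC into 3 sets. Alternatives were quantile normalization, median centring, trend and robust eBayes, array weights, blocks on replicate number or spike-in set, filters at the 40th percentile or a mean of 6, averaging the probe sets of Alb and of Cp, and omission of arrays. A planned protein comparison of Crp and Apcs was not made. Signal was not tested against background, and the number of arrays limits the precision. Replicate numbers were not taken as pairs in the main fit. Deviations from the group mean correlated at −0.114, 0.041, −0.124 and −0.62 across probe sets for numbers 1 to 4. The arrays of numbers 1 and 2 shared a spike-in set and those of numbers 3 and 4 did not. Shared handling by number was not tested.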

Additional observations from a re-analysis of the deposited data

Results flagged for a closer look

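A value is listed here when the gap to the nearest array of its group of 4 takes up more of the range of that group than the 95% critical value of Dixon allows. Of 56 groups, for the members and the 16 genes named by rule, 7 exceeded it. Of 14 groups of 7 further genes chosen after their values were seen, 2 exceeded it. The nominal share of 1 in 20 applies to neither count. Some of the genes named by rule were taken for a small p in these same values, and some groups are probe sets of 1 gene. Cldn5 (1374104_at), also named after its values were seen, was not among these 7. It stood at 4.05 on vehicle 4, against 6.60 to 6.82 on the other vehicle arrays. Of the members, A2m (1367794_at) of vehicle 1 stood at 12.08, against 8.65 to 9.09 in the other vehicle livers. Cp (1368419_at) of antiangiogenic 4 stood at 11.27, against 9.56 to 9.80 in the other antiangiogenic livers. Hp (1370148_at) of antiangiogenic 3, 1 of the near-identical arrays, stood at 14.17, against 14.29 to 14.31.

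Antiangiogenic 2 stood apart within its group at Il6 (1369191_at), with 7.05 against 3.41 to 3.59 on the other antiangiogenic arrays. The lower quartile of the arrays is 3.74 to 3.91. Antiangiogenic 2 did so too at Il1b (1398256_at) with 10.83 against 5.14 to 6.07, and at Socs3 (1369584_at) with 7.06 against 4.81 to 5.15. Vehicle arrays ranged from 3.53 to 3.94 at Il6, from 6.12 to 9.29 at Il1b and from 4.80 to 5.43 at Socs3. Among vehicle livers, Il6r (1386987_at) stood at 9.76 on vehicle 1 against 9.05 to 9.10, and Stat3 (1370224_at) at 10.04 on vehicle 3 against 9.25 to 9.37. Lrg1 (1374626_at) stood at 6.20 on vehicle 4, the other near-identical array, against 7.69 to 7.92.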

How the results depend on the processing

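No member probe set passed the adjusted threshold under any of the alternatives run (smallest adjusted p 0.521). The count over all probe sets was 3 without both near-identical arrays and 0 to 11 when single arrays were left out, with 11 without vehicle 4, and none of the members was among them. The count of all probe sets at an unadjusted p of 0.05 was 1220, and became 2047 with array weights, 785 with the replicate block, 2025 without both near-identical arrays, 792 above the 40th percentile, 481 above a mean of 6, and 538 (without antiangiogenic 1) to 2885 (without antiangiogenic 4) with single arrays left out. Members at that level numbered 0, and 0 to 1 with single arrays left out, 1 being Apcs without antiangiogenic 4.

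The 5 member probe sets with a higher mean became 9 with median centring, 3 with array weights, and 3 (without vehicle 4) to 8 (without antiangiogenic 3, or without vehicle 1) with single arrays left out. The median member difference lay between −0.036 and 0.065 when single arrays were left out, and within the 3 spike-in sets it was −0.026, 0.055 and −0.0099. The first set held antiangiogenic 1 and vehicle 1, and the third held the near-identical antiangiogenic 3 and vehicle 4. Differences in both are between single arrays. The second set held antiangiogenic 2 and 4 and vehicle 2 and 3. At A2m the differences within these sets were −2.05, 0.50 and −0.098, and at Apcs 1.18, 0.18 and 0.051.

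The signs of the small differences are not settled. Median centring gave 0.032 and 0.022 for Alb 1367555_at and 1367556_s_at, 0.047 for Cp 1368418_a_at and 0.036 for 1368420_at. Array weights gave −0.022 for Hp and −0.012 for Orm1, and leaving out both near-identical arrays gave −0.0028 for Hp and 0.00081 for Cp 1368418_a_at. With single arrays left out, the difference ran from −0.644 to 0.500 at A2m (turned without vehicle 1), −0.065 to 0.013 at Alb 1367556_s_at (antiangiogenic 1), −0.124 to 0.228 at Orm1 (antiangiogenic 1 or 2, vehicle 4), and −0.035 to 0.033 at Hp (antiangiogenic 1, 2 or 4, vehicle 3 or 4). It ran from −0.081 to 0.075 at Cp 1368418_a_at (antiangiogenic 3 or 4, vehicle 1 or 2), −0.498 to 0.071 at 1368419_at (antiangiogenic 2 or 3, vehicle 1) and −0.048 to 0.014 at 1368420_at (antiangiogenic 3, vehicle 2). The cause was not tested. The replicate block left all member calls as they were (0 at an unadjusted p of 0.05), and the numbers were not taken as pairs in the main fit.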

Other observations

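Some genes outside the members followed the arrays on which Apcs and Crp were high, and were picked with their values in view. Apoa1 (1368335_at), the main apolipoprotein of high density lipoprotein, stood at 12.22, 12.38, 13.44 and 13.76 on antiangiogenic 1 to 4, against 13.76, 13.64, 13.56 and 13.41 on vehicle 1 to 4, so antiangiogenic 1 and 2 were the lowest. Most negative reactants with a split of this kind went the other way. Antiangiogenic 1 and 2 were above the other 6 arrays at 8 of the 17, against 7.6% of all probe sets. These were Rbp4, Serpina7, F12, Apom, Pon1, Gc, Fetub and Apoh. At Gc the lead was slight, with 14.292 on antiangiogenic 2 against 14.291 on vehicle 3. Antiangiogenic 1 and 2 were below the other 6 arrays at 2 (Apoa1 and Ahsg), against 6.48% of all probe sets. Cd14 (1368490_at), the co-receptor for bacterial lipopolysaccharide, stood at 11.41, 11.65, 10.54 and 9.40 on antiangiogenic 1 to 4, against 9.88, 9.08, 9.97 and 10.55 on vehicle 1 to 4, with antiangiogenic 1 and 2 the highest, a split found at 3 of the 25 positive reactants listed beside the members (also Mbl2 and Serping1) and reversed at 0. The differences of Apoa1 and Cd14 were −0.64 (95% interval −1.38 to 0.10) and 0.88 (95% interval −0.23 to 1.99), both with a limma adjusted p of 0.979.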
